A study of Mus musculus with 16 samples.

Results

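The integrin and laminin genes are 37 of the 20409 genes with a symbol in the count table. They were chosen by symbol alone and comprise 18 integrin α chains (Itga), 8 integrin β chains (Itgb), 5 laminin α chains (Lama), 3 laminin β chains (Lamb) and 3 laminin γ chains (Lamc). Each of the 37 symbols was found in RefSeq's mouse annotation. No measured value entered the choice.

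Values come from adult neural stem cells that were grown from dentate gyri of FVB/N males aged 8 to 10 weeks. Cells came from Fmr1-/y animals (KO), which lack the RNA-binding protein FMRP, or from their WT littermates. Each genotype had 4 cultures of independently isolated cells, and each culture gave a ribosome footprint library and a cytoplasmic RNA library, so the 16 libraries form 4 groups of 4: KO footprints, WT footprints, KO RNA and WT RNA. Footprints are mRNA pieces shielded by ribosomes from nuclease, and footprints relative to RNA measure translational efficiency. Both genotypes were grown with FGF2 and EGF at 20 ng/ml each in serum-free medium and received cycloheximide at 100 µg/ml for 10 min before harvest. The deletion is present in every cell of the animal, and the cells had left the niche whose matrix these receptors bind.

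Total counts ran from 5343042 to 6600023 in RNA libraries and from 9430732 to 17220236 in footprint libraries. The 37 genes together took 0.281% to 0.555% of the counts of an RNA library and 0.347% to 0.660% of those of a footprint library, and both highest shares were those of the libraries of WT culture 1. Fmr1 had 24.1, 27.0, 12.7 and 14.7 CPM in KO footprints, against 129, 149.6, 149 and 149 CPM in WT footprints, and the genotypes did not overlap. Its RNA averaged 13.4 ± 12.0 CPM in KO RNA and 53.0 ± 36.2 CPM in WT RNA, and in 4 of 4 pairs of equal replicate number the KO value was below the WT value. CPM here is the count scaled to the size of its library, with TMM factors within an assay, and an error after ± is the SD over 4 libraries. Of 18 neural stem and progenitor markers, 17 averaged over 1 CPM in every group, led by Vim and Nes in RNA. Defining markers of microglia (Aif1, Cx3cr1, Spi1) had 0 counts in each of the 16 libraries, as did the endothelial marker Cldn5. In such bulk libraries, fewer cells of a type and less RNA per cell cannot be told apart.

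Integrins are cell surface receptors made of 1 α and 1 β chain, and the pairing sets the ligand. Pairs of β1 with α3, α6 or α7 bind laminins, pairs with α5, α8 or αv bind proteins that carry the RGD motif such as fibronectin, and αv also pairs with β3, β5, β6 and β8. Laminins are secreted trimers of an α, a β and a γ chain and form the sheet of basement membranes. In the adult brain they lie along blood vessels near neural stem cells, and α6β1 is known as a receptor by which such cells attach to them.

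Upstream sequence was available in RefSeq (build GRCm38.p6) for 23 of the 37 genes, as a window of 300 bases from 250 before to 50 after a gene's start. Windows are shown for 4 genes that mark the range of the family in these cells. Itgb1 is the β chain with the highest level. Itga3 had the largest RNA fold change between genotypes among the 21 members tested in RNA, on 1 to 3 counts in each KO library. Lama4 was too low in RNA to be tested. Itgax had no count at all, and the RNA of Lamb2 varied most between cultures. Capitals mark CpG dinucleotides, and each sequence runs 5′ to 3′ on the strand of its gene.
Itgb1 (chr8:128685404-128685703, plus strand): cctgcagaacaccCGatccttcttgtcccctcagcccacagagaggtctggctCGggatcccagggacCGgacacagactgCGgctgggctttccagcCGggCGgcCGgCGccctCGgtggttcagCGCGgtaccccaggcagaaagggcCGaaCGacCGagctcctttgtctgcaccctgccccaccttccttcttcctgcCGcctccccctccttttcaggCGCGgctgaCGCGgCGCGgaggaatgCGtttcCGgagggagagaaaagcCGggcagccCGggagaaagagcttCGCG
Itga3 (chr11:95076665-95076964, minus strand): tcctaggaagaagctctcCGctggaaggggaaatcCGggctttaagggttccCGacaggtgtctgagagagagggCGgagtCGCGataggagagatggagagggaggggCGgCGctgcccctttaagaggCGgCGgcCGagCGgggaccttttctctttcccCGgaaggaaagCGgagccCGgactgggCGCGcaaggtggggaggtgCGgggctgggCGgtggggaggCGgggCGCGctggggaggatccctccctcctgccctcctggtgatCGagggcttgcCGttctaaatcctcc
Itgax (chr7:128129300-128129599, plus strand): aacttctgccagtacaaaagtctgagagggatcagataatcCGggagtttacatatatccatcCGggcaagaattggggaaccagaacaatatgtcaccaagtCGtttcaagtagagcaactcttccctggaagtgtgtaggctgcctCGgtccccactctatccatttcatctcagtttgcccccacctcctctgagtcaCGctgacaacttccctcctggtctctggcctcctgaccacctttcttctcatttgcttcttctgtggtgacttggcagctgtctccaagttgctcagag
Lamb2 (chr9:108479612-108479911, plus strand): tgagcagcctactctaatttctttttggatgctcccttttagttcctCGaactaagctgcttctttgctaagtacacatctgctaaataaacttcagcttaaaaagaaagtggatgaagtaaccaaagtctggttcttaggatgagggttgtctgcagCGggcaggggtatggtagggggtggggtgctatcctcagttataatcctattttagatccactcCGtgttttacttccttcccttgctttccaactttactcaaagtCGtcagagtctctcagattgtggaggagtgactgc

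These windows hold 27 CpGs for Itgb1, 24 for Itga3, 5 for Itgax and 4 for Lamb2. RefSeq lists another Itga3 start, whose window on the same strand holds 5. Over the 23 genes, taking the start that RefSeq's table lists first (for Itga3 the one shown), the median was 12 CpGs, and over the windows of 27018 genes it was 7. It was 13 for the 16 genes whose counts were high enough to be tested and 6 for the 7 whose counts were not. The GC box GGGCGG, searched on both strands as GGGCGG or CCGCCC, occurred in 11 of the 23 windows (47.8%) and in 35.9% of the windows of all genes. The TATA sequence TATAAA, or TTTATA on the other strand, occurred in 0 of the 23 and in 14.2% of all. GGGCGG holds a CpG and so overlaps that count, and a match of letters describes the window only.

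The level of each chain was compared between genes on the scale per transcript length, using the deposited TPM, a level that allows for transcript length and was rounded to whole numbers. The β1 chain gene Itgb1 stood highest among the 26 integrins, with 496 ± 80.7 TPM in KO footprints and 570.0 ± 84.6 TPM in WT footprints and 286 ± 110.5 TPM in KO RNA and 386 ± 231 TPM in WT RNA (SD, n = 4 each). Next came Itgav, the αv chain, with 191 ± 58.9 TPM in KO footprints and 198 ± 73.2 TPM in WT footprints. Itga6, the laminin receptor chain α6, had 110.0 ± 22.9 TPM in KO footprints and 52.2 ± 14.2 TPM in WT footprints, and Itgb8, which pairs with αv and activates latent TGF-β, had 85.8 ± 55.6 TPM in KO footprints and 99.5 ± 96.5 TPM in WT footprints. In KO footprints the levels of Itga6 and Itgb8 differed by less than their spread. The other integrins averaged at most 9.75 TPM in footprints (Itga1 in WT) and at most 27.2 TPM in RNA (Itgb5 in WT).

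Among laminin chains, Lamc1, the γ1 chain common to most laminins, stood highest with 183 ± 58.7 TPM in KO footprints and 264 ± 113 TPM in WT footprints. The α chain with the highest level was Lama5, with 26.5 ± 7.19 TPM in KO footprints and 27.8 ± 18.7 TPM in WT footprints, and the β chains were Lamb1 with 30.0 ± 8.04 TPM in KO footprints and 27.5 ± 18.4 TPM in WT footprints and Lamb2 with 10.0 ± 6.16 TPM in KO footprints and 20.2 ± 24.4 TPM in WT footprints. Lama5 and Lamb1 differed by less than their spread in both genotypes, and Lamb2 was below both in KO and within their spread in WT. The ratio of Lamc1 to the sum of the 5 α chains was 4.03 to 14.7 in KO footprints and 7.91 to 20.9 in WT footprints. Its ratio to the sum of the 3 β chains was 2.63 to 9.26 in KO footprints and 4.22 to 18.8 in WT footprints.

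**Figure D1:**
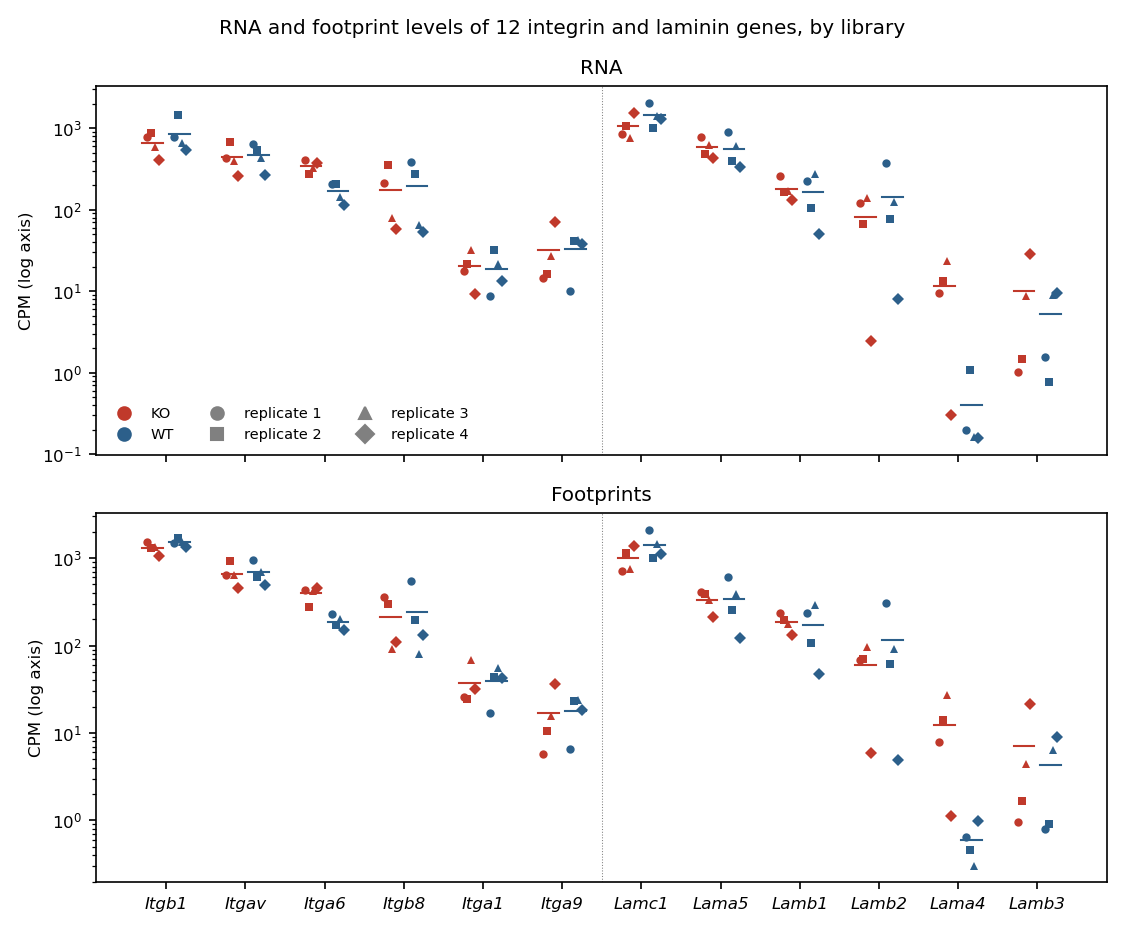
RNA (upper panel) and footprint (lower panel) levels in CPM on a log axis for the 6 integrin and 6 laminin genes with the highest mean footprint CPM, with KO left of WT for each gene; symbols mark the replicate number and bars the mean of 4 libraries. Itga6 lies higher in each KO library than in any WT library, Lama4 is high in 3 of 4 KO cultures, and Lamb2 is low in replicate 4 of both genotypes. CPM is not divided by transcript length, so heights compare libraries within a gene.

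Of the 37 genes, 3 had no count in any of the 16 libraries: Itgax and Itgad, α chains of myeloid cells, and Itgb6, an epithelial β chain. Another 11 had between 2 and 149 counts over the 16 libraries and were too low to be tested. The remaining 23, 15 integrins and 8 laminins, were tested in at least 1 assay: 21 in RNA, 22 in footprints and 20 for translational efficiency. Itga2 and Lama4 were tested in footprints alone.

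The genotypes were compared with edgeR's quasi-likelihood test over all genes, with Benjamini-Hochberg adjustment. In RNA 0 of the 21 tested members passed an adjusted p of 0.05, which 0.00901% of 11097 tested genes passed. In footprints 0 of 22 members passed, against 0.0349% of 11472 genes. For translational efficiency 0 of 20 passed, and the share over 10863 genes was 0.0%. At an unadjusted p under 0.05, 2 of 21 members stood out in RNA (Itga6 higher and Itga3 lower in KO), against 1.87% of all genes tested. In footprints there were 2 of 22 (Itga6 and Lama4, both higher in KO), against 4.59% of all genes. For translational efficiency there was 1 of 20 (Itga3, higher in KO), against 0.129% of all genes. The genes whose 4 KO libraries did not overlap the 4 WT libraries were the same: Itga6 and Itga3 in RNA, where 1.28% of all genes did not overlap, and Itga6 and Lama4 in footprints, where the share was 1.88%. Itga3 entered the RNA test only through its WT libraries and Lama4 the footprint test only through its KO libraries, so such genes had to differ and these counts describe the members without supporting a difference.

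DESeq2, a second count model, passed 1 member in RNA (Itga3), where it passed 0.18% of all genes, and 2 in footprints (Itga6 and Lama4), where it passed 0.715%; for Itga3 and Lama4 the same limit of the low-count filter holds. It passed 0 in translational efficiency, and limma-voom passed 0 in each of the 3 comparisons. The median log2 fold change of KO over WT was -0.16 over the 21 members tested in RNA and 0.0079 over all genes. In footprints it was -0.092 over 22 members and 0.0063 over all genes, and for translational efficiency 0.036 over 20 members and 0.012 over all genes. Log2 fold changes were above 0 for 8 members and below 0 for 13 in RNA, and for 8 and 14 in footprints.

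**Figure D2:**
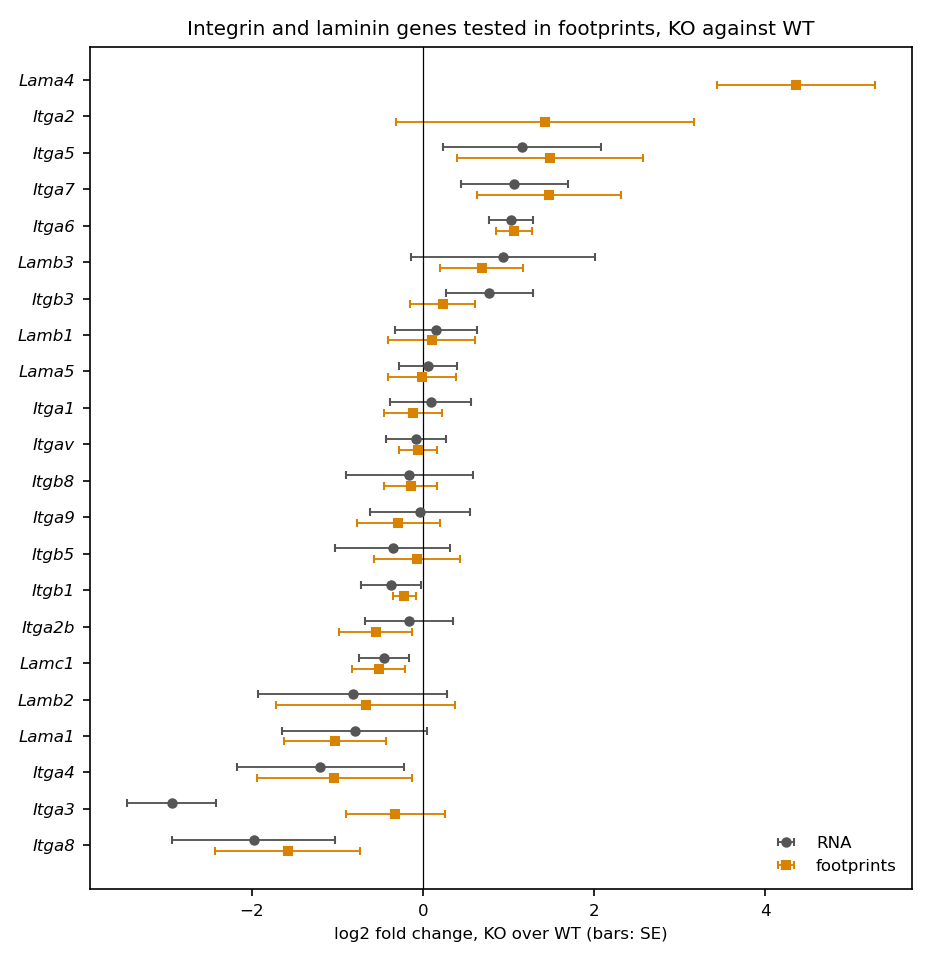
Log2 fold change of KO over WT (horizontal axis) with its SE for the 22 integrin and laminin genes tested in footprints, in RNA where tested (grey circles) and in footprints (orange squares). Itga6 lies at 1.03 and 1.06 with narrow bars, Lama4 at 4.36 in footprints, and Itga3 at -2.94 in RNA but -0.32 in footprints; these lie furthest from 0 relative to their SE, and none passed after adjustment.

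Among the α chains of laminin receptors, Itga6 had the highest level, and its KO libraries lay above its WT libraries in both assays. Itga6 had 427, 272, 419 and 460.1 CPM in KO footprints, against 231, 169.7, 202 and 149 CPM in WT footprints. In RNA it had 413, 273, 321 and 372 CPM in KO, against 209, 209, 144 and 113 CPM in WT. The lowest KO library exceeded the highest WT library in each assay. The log2 fold change was 1.06 (SE 0.21) in footprints and 1.03 (SE 0.26) in RNA, a ratio of about 2.09 and 2.04, with edgeR adjusted p-values of 0.36 and 1.0. It was 0.81 in footprints and 0.69 in RNA over replicates 1 and 2 alone, and 1.31 and 1.43 over replicates 3 and 4 alone. With DESeq2 the adjusted p was 0.000963 in footprints and 0.104 in RNA. The footprint and RNA fold changes were of similar size, and the log2 fold change in translational efficiency was 0.050 (SE 0.34).

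Itga6 supplied nearly all transcript of this receptor class. Its share of the summed TPM of Itga3, Itga6 and Itga7 was between 92.8% and 100.0% in KO footprints and between 94.1% and 100.0% in WT footprints. Set against Itgav, the αv chain, the ratio of Itga6 in TPM was 0.386 to 1.40 in KO RNA and 0.320 to 0.405 in WT RNA, and 0.284 to 0.977 in KO footprints and 0.237 to 0.294 in WT footprints. KO culture 2 had the lowest ratio of the KO cultures, with the lowest Itga6 and the highest Itgav among them.

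Itga3 encodes α3, another laminin receptor chain, which prefers laminins with an α5 chain. It was scarce, with 3, 2, 1 and 3 counts in KO RNA, against 18, 19, 13 and 20 counts in WT RNA. In footprints there were 9, 17, 27 and 18 counts in KO footprints, against 38, 27, 14 and 7 counts in WT footprints. KO RNA was at 1 to 3 counts in every library and WT RNA at 13 to 20, while the footprint counts of the genotypes overlapped. Its log2 fold change was -2.94 (SE 0.52) in RNA (edgeR adjusted p = 0.492) and -0.32 (SE 0.58) in footprints, and that of translational efficiency was 2.66 (SE 0.77) with an adjusted p of 1.0. The footprint value was -1.50 over replicates 1 and 2 alone and 0.92 over replicates 3 and 4 alone, while the RNA value was -2.89 and -3.0. Itga3 passed the filter on low RNA counts through its WT libraries.

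Itga7, the α7 chain known from muscle and glia, ran at 4.72 to 23.0 CPM in KO RNA and 3.13 to 11.4 CPM in WT RNA. Its KO libraries of replicates 1 and 2 were above every other library, and its log2 fold change of 1.07 (SE 0.63) in RNA and 1.47 (SE 0.84) in footprints did not pass (edgeR adjusted p of 1.0 and 0.999). Itgb4, whose β4 chain pairs with α6 alone in hemidesmosomes, was too low to be tested, with at most 1.66 CPM in any RNA library.

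**Figure D3:**
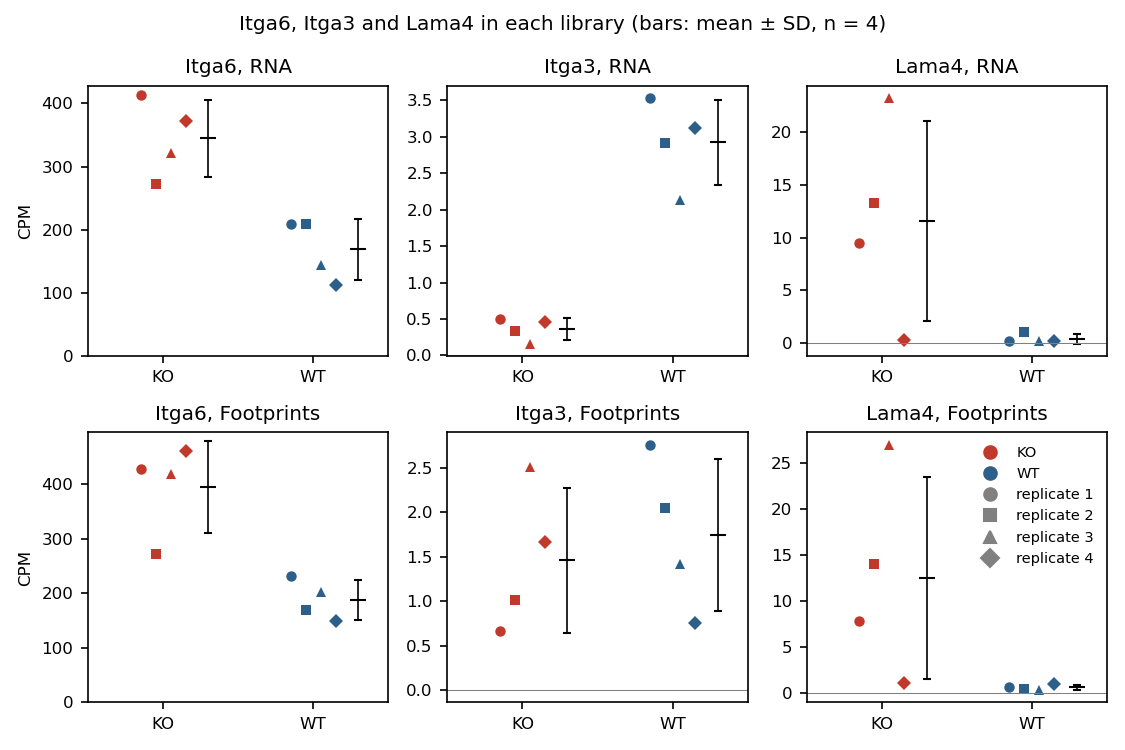
CPM of Itga6, Itga3 and Lama4 in each library, with RNA in the upper row and footprints in the lower row, KO left of WT, symbols for the replicate number and a bar for the mean ± SD of 4 libraries. The genotypes are apart for Itga6 in both assays and for Itga3 in RNA alone, where KO libraries hold 1 to 3 counts; Lama4 is low in KO replicate 4 and in each WT library.

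Itgb1 is the shared partner of these α chains and of 9 others. It had 1509.5, 1312, 1348 and 1059 CPM in KO footprints, against 1479, 1701, 1546 and 1342 CPM in WT footprints. Its RNA libraries held 773, 883, 591 and 407 CPM in KO, against 789.7, 1440.1, 649 and 547 CPM in WT. In RNA the KO value was below the WT value in 4 of 4 pairs of equal replicate number, by little in replicates 1 and 3. In footprints it was below in 3 of 4 pairs, and the groups overlapped in both assays. KO over WT, the log2 fold change was -0.37 (SE 0.35) in RNA and -0.22 (SE 0.13) in footprints, and neither passed (edgeR adjusted p of 1.0 and 0.999). The RNA value rested on WT replicate 2, at 1440.1 CPM, and was 0.0035 without it.

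The balance of β1 to its α chains was described on the TPM scale, without a test. The 12 α chains that pair with β1 summed to 281 ± 63.7 TPM in KO RNA and 242 ± 92.5 TPM in WT RNA, and to 330.0 ± 36.1 TPM in KO footprints and 281 ± 83.2 TPM in WT footprints. The ratio of Itgb1 to that sum was 0.769 to 1.15 in KO RNA and 1.19 to 2.18 in WT RNA, where the genotypes were narrowly apart. It was 1.36 to 1.77 in KO footprints and 1.60 to 2.47 in WT footprints, where they overlapped. No share over all genes was computed for such a ratio. Itga6, at 104 TPM in KO RNA and 54.0 TPM in WT RNA, is in the sum, so the ratio is not separate from its difference. Itgav and Itga6 made up most of the sum, and the other 10 α chains added 29.0 ± 10.8 TPM in KO footprints and 30.5 ± 12.6 TPM in WT footprints.

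**Figure D4:**
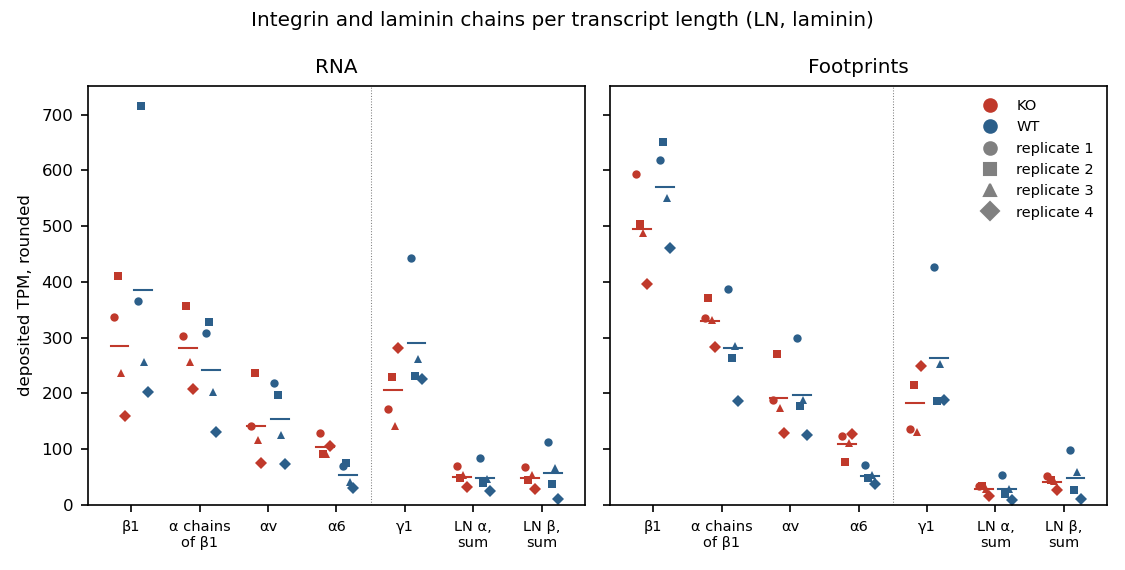
Deposited TPM, rounded to whole numbers, of integrin chains (left of the dotted line in each panel) and laminin chains (right of it), in RNA (left panel) and footprints (right panel), with KO left of WT; LN stands for laminin, symbols mark the replicate number and bars the mean of 4 libraries. The sum of the α chains that pair with β1 averages 281 TPM in KO RNA and 242 TPM in WT RNA, while β1 averages 286 TPM in KO RNA and 386 TPM in WT RNA; the laminin γ1 chain lies above the sums of laminin α and of laminin β chains in each library.

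Receptors of RGD ligands were led by Itgav. It had 633, 931, 633 and 458 CPM in KO footprints, against 946, 615, 698 and 485 CPM in WT footprints, and the genotypes overlapped. The log2 fold change was -0.057 (SE 0.22) in footprints and -0.079 (SE 0.35) in RNA, and neither differed beyond its SE. Itga5, whose α5β1 is the classical fibronectin receptor, varied over a wide range: 48.0, 21.0, 81.1 and 8.37 CPM in KO RNA, against 9.61, 23.2, 0.823 and 37.0 CPM in WT RNA. High and low libraries occurred in both genotypes, and WT culture 3 had 5 RNA counts and 0 footprint counts. The log2 fold change of Itga5 was 1.16 (SE 0.92) in RNA and 1.48 (SE 1.08) in footprints, and edgeR's adjusted p-values were 1.0 and 0.999. Single libraries moved it, to 0.54 in RNA and 0.47 in footprints without KO replicate 3 and to 1.81 and 2.36 without WT replicate 4.

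Itga8 encodes α8, a receptor of nephronectin with β1. It had 3.08, 4.04, 8.54 and 22.4 CPM in KO footprints, against 3.85, 35.0, 45.5 and 6.81 CPM in WT footprints, with WT cultures 2 and 3 above the other libraries. RNA values were 1.35, 3.64, 5.85 and 7.30 CPM in KO, against 1.57, 39.1, 28.0 and 2.81 CPM in WT, and the same WT cultures were high. Its log2 fold change was -1.97 (SE 0.95) in RNA and -1.58 (SE 0.85) in footprints, and neither passed (adjusted p of 1.0 and 0.999). Without WT replicate 2 it was -1.25 in RNA and -0.53 in footprints. Itga2b, the platelet chain that pairs with β3, ran at 1.01 to 3.64 CPM in KO RNA and 1.88 to 3.79 CPM in WT RNA, with a log2 fold change of -0.16 (SE 0.51).

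Apart from β1, the β chains that pair with αv were led in level by Itgb8 and Itgb5, which varied widely between cultures. Itgb8 had 354, 302, 91.5 and 109.9 CPM in KO footprints, against 554, 198, 80.2 and 133 CPM in WT footprints. Its RNA stood at 211, 350.1, 78.2 and 58.3 CPM in KO, against 384, 276, 64.7 and 53.3 CPM in WT. Replicates 1 and 2 of both genotypes stood above replicates 3 and 4, and the log2 fold change between genotypes was -0.14 (SE 0.31) and -0.16 (SE 0.74). Itgb5, a receptor chain for vitronectin with αv, ran at 26.0 to 90.8 CPM in KO RNA and 18.3 to 146 CPM in WT RNA, with a log2 fold change of -0.35 (SE 0.68). Itgb3, the vitronectin receptor chain of osteoclasts and platelets, ran at 1.46 to 2.89 CPM in KO RNA and 0.767 to 2.14 CPM in WT RNA, with a log2 fold change of 0.78 (SE 0.51).

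Collagen receptors were represented by Itga1, the α1 chain. It had 25.8, 24.2, 68.9 and 31.8 CPM in KO footprints, against 16.8, 43.8, 54.7 and 42.6 CPM in WT footprints. In RNA it had 17.6, 21.9, 32.0 and 9.28 CPM in KO, against 8.63, 32.2, 21.4 and 13.4 CPM in WT. The ranges of the genotypes nearly coincided in RNA and overlapped in footprints, and the log2 fold change was -0.11 (SE 0.34) in footprints and 0.090 (SE 0.47) in RNA. Itga2, the α2 chain, was present in some cultures of either genotype, with 2.49, 2.85, 11.3 and 0.833 CPM in KO footprints, against 9.87, 1.97, 0.101 and 0 CPM in WT footprints. Itga10 and Itga11, the other collagen receptor chains, were too low to be tested.

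Itga9 and Itga4 encode related chains that bind, among others, tenascin C and fibronectin. Itga9 had 14.7, 16.2, 27.3 and 70.6 CPM in KO RNA, against 10.0, 41.4, 42.1 and 37.7 CPM in WT RNA. Its footprints ran at 5.71, 10.5, 15.7 and 35.8 CPM in KO, against 6.53, 23.1, 23.9 and 18.5 CPM in WT. KO culture 4 was the highest and WT culture 1 among the lowest in both assays, and the log2 fold changes were -0.027 (SE 0.58) and -0.28 (SE 0.48). Itga4 ran at 0.741 to 14.7 CPM in KO footprints and 6.76 to 44.7 CPM in WT footprints, with a log2 fold change of -1.03 (SE 0.91), and WT culture 3 was the highest. In RNA it had 5.41, 3.31, 10.9 and 0 CPM in KO, against 8.43, 8.29, 24.7 and 3.60 CPM in WT, and the KO value was lower in 4 of 4 pairs of equal replicate number. Its log2 fold change of -1.20 (SE 0.98) in RNA did not pass (edgeR adjusted p = 1.0).

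The chains of leukocyte integrins had few counts or none. Itgad and Itgax had 0 counts, Itgam had 2 counts in all and Itgal 31, and Itgae, which pairs with β7, had 32. Their partners Itgb2 and Itgb7 had 149 and 2. Itgb2 reached 4.47 CPM in KO RNA replicate 2 and was at most 1.53 CPM in any other RNA library. Of 14 microglia and leukocyte markers, 8 were at 0 in every KO RNA library and 6 in every WT RNA library, with Aif1, Cx3cr1, Ptprc and Spi1 at 0 in both genotypes.

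Among laminin chains, Lamc1 had 712, 1148, 740.2 and 1365 CPM in KO footprints, against 2093, 997, 1454 and 1124 CPM in WT footprints. Its RNA libraries held 849, 1059, 761 and 1530.4 CPM in KO, against 2049, 998, 1415 and 1305 CPM in WT. WT culture 1 was the highest library in both assays, KO cultures 1 and 3 the lowest, and the groups overlapped. KO over WT, the log2 fold change was -0.51 (SE 0.31) in footprints and -0.46 (SE 0.29) in RNA, which did not pass (edgeR adjusted p of 0.999 and 1.0). Lamc3, the γ3 chain, was too low to be tested.

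Lama5, the α5 chain that α3β1 and α6β1 bind most strongly, did not separate the genotypes. It had 406, 388, 334 and 211 CPM in KO footprints, against 602, 256, 393 and 121 CPM in WT footprints. RNA values were 784, 481, 627 and 429 CPM in KO, against 903, 395, 597 and 338 CPM in WT. Culture 4 was the lowest in each genotype, and the log2 fold change was -0.014 (SE 0.40) in footprints and 0.056 (SE 0.34) in RNA. Lama1, the α1 chain of the embryonic basement membrane, ran at 0.975 to 9.61 CPM in KO RNA and 1.41 to 17.5 CPM in WT RNA, with a log2 fold change of -0.80 (SE 0.84). Lama2 and Lama3 were too low to be tested.

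Lama4, the α4 chain found in the basement membrane of blood vessels, had the widest difference of the family in footprints. It had 7.84, 14.0, 26.9 and 1.11 CPM in KO footprints, against 0.653, 0.456, 0.304 and 0.972 CPM in WT footprints. In RNA, where it was too low to be tested, it had 9.47, 13.3, 23.2 and 0.304 CPM in KO, against 0.196, 1.07, 0.165 and 0.156 CPM in WT. In both assays 3 KO cultures stood far above the WT cultures, while KO culture 4 was close to them. The log2 fold change in footprints was 4.36 (SE 0.92), with an edgeR adjusted p of 0.407. Without KO replicate 4 it was 4.75, with an adjusted p of 0.0282, and without KO replicate 3 it was 3.14, with an adjusted p of 1.0. Leaving out any other library gave adjusted p-values within these limits, and with the replicate block the value was 3.85 and the adjusted p 0.785. It was 4.29 over replicates 1 and 2 alone and 4.43 over replicates 3 and 4 alone. Lama4 passed the filter on low counts through its KO libraries, and these p-values do not support a difference on their own.

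Markers of vessel cells were measured in the same libraries. Of 15 endothelial and mural markers, 4 averaged over 1 CPM in KO RNA and 3 in WT RNA, with Cldn5 at 0 in each library. Their summed level was 16.9 to 36.1 CPM in KO RNA and 9.88 to 25.2 CPM in WT RNA, and 11.8 to 43.8 CPM in KO footprints and 11.3 to 25.5 CPM in WT footprints. Tek, the endothelial angiopoietin receptor gene, had 3.72, 4.14, 6.66 and 5.63 CPM in KO RNA, against 0.196, 2.0, 2.47 and 1.09 CPM in WT RNA. The genotypes did not overlap in RNA, as in 1.28% of all genes tested. In footprints they overlapped, at 1.25 to 3.06 CPM in KO and 0.508 to 1.72 CPM in WT. Its log2 fold change was 1.78 (SE 0.61) in RNA and 1.39 (SE 0.46) in footprints, with edgeR adjusted p-values of 1.0 and 0.925. The unadjusted p was under 0.05 in both assays, as for 1.87% of all genes in RNA and 4.59% in footprints. Tek was low in each library and passed the filter on low counts through its KO libraries in both assays, so the limit of that filter holds here too. These values do not support a difference on their own. Flt1, a VEGF receptor gene, had log2 fold changes of 0.78 (SE 0.69) in RNA and 1.0 (SE 0.47) in footprints. Kdr, tested in footprints alone, was at 0.59 (SE 0.53). Acta2 went the other way, at -0.28 (SE 0.76) in RNA and -0.36 (SE 0.57) in footprints. Pecam1 was at most 0.152 CPM in KO RNA and 0.767 CPM in WT RNA. Cdh5 reached 1.52 CPM in KO RNA replicate 4 and was at 0 in WT RNA. In footprints Cdh5 was at most 0.0929 CPM in KO and 0.203 CPM in WT. The sum over 10 fibroblast and meningeal markers was 36.0 to 64.0 CPM in KO RNA and 25.3 to 45.9 CPM in WT RNA, with Col1a2, Dcn and Lum at 0 in both. The part of these cells in the Lama4 difference was not tested.

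The β chains varied between cultures. Lamb1, the β1 chain, had 238, 198, 177 and 131 CPM in KO footprints, against 238, 106, 291 and 47.5 CPM in WT footprints, and WT cultures 1 and 3 were above WT cultures 2 and 4. Its RNA stood at 259, 166, 171 and 132 CPM in KO, against 224, 104, 278 and 49.9 CPM in WT, with the same WT cultures high. Its log2 fold change was 0.10 (SE 0.51) in footprints and 0.15 (SE 0.48) in RNA. Lamb2, the β2 chain found at synapses and in vessel walls, had 68.5, 70.8, 97.0 and 5.83 CPM in KO footprints, against 308, 62.2, 91.7 and 4.97 CPM in WT footprints. In RNA it had 121, 66.4, 138 and 2.43 CPM in KO, against 369.8, 77.3, 124 and 7.97 CPM in WT. The fourth culture was the lowest of each genotype in both assays, and WT culture 1 was the highest. The log2 fold change was -0.67 (SE 1.05) in footprints and -0.82 (SE 1.11) in RNA, with SEs that exceeded the values.

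Lamb3, the β3 chain of an epithelial laminin that holds the α3 chain, had 0.952, 1.66, 4.36 and 21.5 CPM in KO footprints, against 0.798, 0.911, 6.39 and 9.08 CPM in WT footprints. Its RNA libraries held 1.01, 1.49, 8.77 and 28.6 CPM in KO, against 1.57, 0.767, 9.06 and 9.38 CPM in WT. Replicates 3 and 4 of both genotypes stood above replicates 1 and 2, and the log2 fold change was 0.69 (SE 0.49) in footprints and 0.94 (SE 1.08) in RNA. Lama3, the α3 chain, was too low to be tested.

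Part of the spread followed the replicate number and was common to both genotypes. In RNA, 6 of 21 tested members (Itga7, Itgav, Itgb1, Itgb5, Itgb8 and Lama1) had each of the 4 libraries of replicates 1 and 2 above each of the 4 of replicates 3 and 4, as had 14.6% of all genes tested, and 1 (Lamb3) had each below, as had 16.6%. In footprints 2 of 22 (Itgb5 and Itgb8) were above and 1 (Lamb3) below, against 16% and 15.6% of all genes, so the split was common over all genes. The footprint libraries of replicates 1 and 2 carry molecular identifiers of 5 nt and those of replicates 3 and 4 of 8 nt, and this term is in the footprint fit. No identifier is given for the RNA libraries of the same cultures, where the split also appeared, and identifier length cannot be told apart from any other difference between these cultures.

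**Figure D5:**
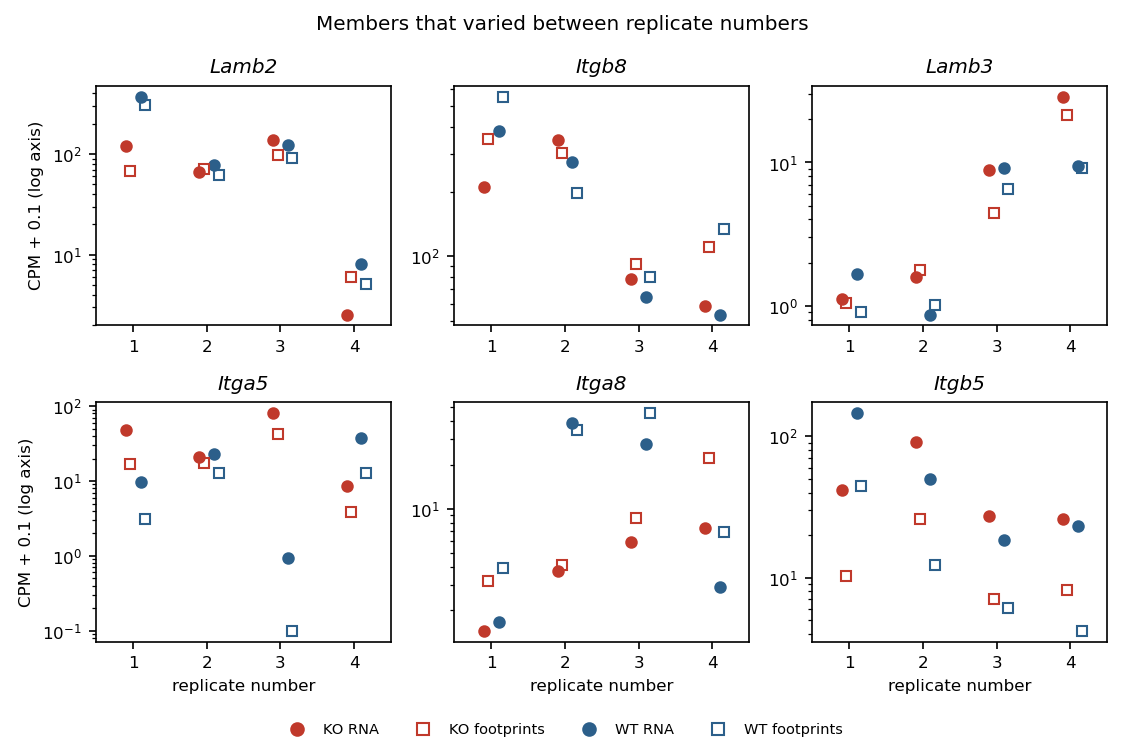
CPM plus 0.1 on a log axis against the replicate number for 6 genes, with KO left of WT at each number, filled circles for RNA and open squares for footprints; each point is 1 library. Lamb2 is low in replicate 4 of both genotypes, Itgb8 and Itgb5 are higher in replicates 1 and 2 and Lamb3 is higher in replicates 3 and 4, while Itga5 and Itga8 vary without a shared order.

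The ratio of footprint CPM to RNA CPM within a culture varied widely among the genes. Its median over all tested genes was 0.901. Itgb1 was above 1 in each of the 8 cultures (1.18 to 2.60), as were Itgav (1.15 to 1.80) and Itga1 (1.10 to 3.43). Itgb5 was lowest of the 20 genes by its median, at 0.177 to 0.327, which placed it at percentile 8.50 of all tested genes. Below 1 in each culture were also Itga9 (0.388 to 0.653), Lama5 (0.358 to 0.807), Lama1 (0.384 to 0.782), Itga5 and Itga7. The γ1 chain Lamc1 and the β1 chain Lamb1 were close to 1, at 0.838 to 1.08 and 0.919 to 1.2. RNA and footprint libraries were made by different methods, and the part of the method in differences between genes was not tested.

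Between genotypes, the log2 fold change of translational efficiency lay between -0.54 (Itgb3) and 0.39 (Itga7) for the 19 genes other than Itga3. For Itga3 the ratios were 1.30, 3.05, 15.4 and 3.65 in the KO cultures, against 0.781, 0.703, 0.663 and 0.242 in the WT cultures. Each KO ratio exceeded each WT ratio, and they rest on 1 to 3 RNA counts in each KO library.

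Other genes of the pathway were read from 6 lists, none of which had a member past the adjusted threshold in any comparison with edgeR, DESeq2 or limma-voom. With edgeR at an unadjusted p under 0.05 there were 2 of 110 genes in RNA (Sparc and Npnt, against 1.87% of all genes), 7 of 113 in footprints (these and Fbln2, Edil3, Spp1, Bcam and Sdc2, against 4.59%) and 0 of 108 in translational efficiency. Of 27 adhesion adaptors and integrin activators in the table, 21 were tested in each assay, with a median log2 fold change of -0.11 in footprints and -0.085 in RNA. Tln1, which encodes talin, the protein that switches integrins to their active form, had 409 ± 96.1 CPM in KO footprints and 416 ± 109 CPM in WT footprints. Flna, which encodes the actin cross-linker filamin A, had 476 ± 146 CPM in KO footprints and 399 ± 165 CPM in WT footprints. Neither gene differed beyond its spread. Of 25 signalling kinases, GTPases and scaffolds, 23 were tested in footprints, with a median of -0.012. The GTPase genes Rac1 and Rhoa had the highest footprint CPM: Rac1 had 439 ± 46.4 CPM in KO footprints and 436 ± 42.5 CPM in WT footprints, and Rhoa had 364 ± 71.0 CPM in KO footprints and 359 ± 76.0 CPM in WT footprints. Of 16 membrane partners of integrins, such as the tetraspanin gene Cd81 and the galectin gene Lgals1, 13 were tested in footprints, with a median of -0.028. Cd81 had 779.9 ± 223 CPM in KO footprints and 932 ± 344 CPM in WT footprints and Lgals1 686 ± 147 CPM in KO footprints and 924 ± 411 CPM in WT footprints, within their spread.

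Both matrix lists had medians below 0 over all libraries, and WT culture 1 stood above the other WT cultures in several of their genes. Of 20 basement membrane partners of laminin, 14 were tested in footprints, 1 above 0 and 13 below, with a median log2 fold change of -0.42 (0.0063 over all genes). In RNA 2 were above 0 and 11 below, with a median of -0.33. Sparc, which encodes a collagen-binding matricellular protein, had 372 ± 244 CPM in KO footprints and 928 ± 568 CPM in WT footprints, and its log2 fold change of -1.22 (SE 0.46) did not pass (adjusted p = 0.999). Agrn, which encodes the heparan sulfate proteoglycan agrin that binds the laminin γ1 chain, had 388 ± 198 CPM in KO footprints and 579.9 ± 518 CPM in WT footprints. WT culture 1 had 1724 CPM of Sparc and 1312 CPM of Agrn in footprints, against 405 to 894 CPM and 147 to 566 CPM in the other WT cultures. Without it the WT mean of Agrn was 336 CPM, below the KO mean, and that of Sparc 662 CPM, above the KO mean. The footprint median of the list was -0.36 without WT replicate 1, with 1 gene above 0 and 13 below. The RNA median was then -0.18, with 5 genes above 0 and 8 below. Other libraries moved the footprint median further, to -0.24 without WT replicate 3 and to -0.68 without KO replicate 3. Over all libraries the member above 0 in footprints was Fbln2, a fibulin gene, at 0.86 (SE 0.35).

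Of 28 other integrin ligands, 16 were tested in footprints, 6 above 0 and 10 below, with a median of -0.40 (RNA: 15 tested, median -0.60). Tnc, which encodes the α9β1 ligand tenascin C, had 766 ± 218 CPM in KO footprints and 1055 ± 343 CPM in WT footprints, and Mfge8, which encodes an RGD protein bound by αv integrins, had 661 ± 487 CPM in KO footprints and 1067 ± 1171 CPM in WT footprints. Of Mfge8, WT culture 1 had 2779 CPM in footprints and the other WT cultures 258 to 863 CPM, with a mean of 496 CPM, below the KO mean. Without WT replicate 1 the median of these ligands was -0.068 in footprints and 0.14 in RNA, so the RNA median turned sign. Other libraries moved the footprint median too, to -0.022 without KO replicate 2 and to -0.34 without KO replicate 3. Npnt, which encodes nephronectin, the ligand of α8β1, had 33.3 ± 20.7 CPM in KO footprints and 13.1 ± 3.97 CPM in WT footprints, with a log2 fold change of 1.32 (SE 0.44) in footprints and 1.56 (SE 0.46) in RNA. Its receptor chain gene Itga8 had -1.58 and -1.97 in the same assays. Edil3, another RGD protein gene, was at 1.33 (SE 0.51) and Spp1, which encodes osteopontin, at -1.67 (SE 0.55) in footprints. Npnt, Edil3 and Spp1 had an unadjusted p under 0.05 in footprints, and their adjusted p-values by edgeR lay between 0.925 and 0.999.

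Of 30 receptors of laminin other than integrins and enzymes that glycosylate dystroglycan, 26 were tested in footprints, 7 above 0 and 19 below, with a median of -0.062. Without WT replicate 1, 27 were tested, 13 above 0 and 14 below, with a median of -0.00051. Without WT replicate 2 the median was -0.12. Dag1, which encodes dystroglycan, had 573 ± 123 CPM in KO footprints and 600.2 ± 199.8 CPM in WT footprints. Rpsa, which encodes the ribosomal protein also described as a laminin receptor, had 1020.2 ± 212 CPM in KO footprints and 946 ± 374 CPM in WT footprints. Neither gene's difference exceeded its spread. Bcam, which encodes a receptor of the laminin α5 chain, was at -1.05 (SE 0.35) and Sdc2, a syndecan gene, at -0.53 (SE 0.20) in footprints, and neither passed (adjusted p of 0.926 and 0.999).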

How the data were processed

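Cytoplasmic RNA and ribosome footprints were measured in 8 cultures. One file that the authors deposited holds estimated counts, all whole numbers; the other holds TPM values that the authors deposited after rounding, read here as a score. The submitters' processing notes list RSEM 1.2.11, TopHat2 2.0.9, Bowtie2 2.1.0, cutadapt 1.7.1, bedtools 2.22.0, SAMtools 0.0.19 and the build mm10, with no role for any. No source used here says how identifiers were collapsed or if counting used strand, so overlapping and antisense genes could not be told apart. RNA libraries were made with the NuGEN Ovation V2 kit, per the labels' protocols. A table of the authors' own comparisons was not analysed here.

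Of 20436 rows, 27 held a bare number in place of a symbol (0.244% to 0.422% of a library's counts) and were left out. The count test was edgeR 4.0.16 in R 4.3.3: TMM factors, genes kept by filterByExpr on genotype, and a two-sided quasi-likelihood F test with Benjamini-Hochberg adjustment over all genes tested and a threshold of 0.05. The RNA model had genotype, the footprint model had genotype and identifier length, and translational efficiency was the interaction of assay and genotype over 16 libraries. The procedure was tested on simulated data. Alternatives were DESeq2 1.42.0, limma-voom and limma-trend (limma 3.58.1), other scalings, no filter, the replicate block, replicates 1 and 2 or 3 and 4 alone, another batch term and leaving out each library. TPM sums and promoter windows were described without a test.

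Replicates are independently isolated cells per the labels, and no library repeated the values of another. Titles number the cultures 1 to 4 in both genotypes. The deviations from group means of KO and WT libraries with equal numbers had correlations of 0.497 to 0.620 (RNA) and 0.391 to 0.555 (footprints). These were above 0.1 throughout, and equal numbers were read as pairs. The fits reported have no term for the pairs, and that of translational efficiency has none for the culture that gave both libraries. The replicate block is the alternative. It pairs equal numbers in RNA and in footprints, and in translational efficiency it joins the libraries of each culture. With unequal numbers the correlations were -0.553 to 0.379 (RNA) and -0.471 to 0.456 (footprints).

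The members, gene lists and alternatives were chosen with earlier results of these data known. Values in every library are given for members with an unadjusted p under 0.05 in any comparison and for the 6 integrins and 6 laminins with the highest mean footprint CPM. Of each pathway list, the 2 members with the highest footprint CPM are named. Other members and pathway genes given with values (Itga5, Itga8, Itga2, Itga7, Itgb5, Itga4, Itgb2, Itgb3, Itgb4, Itga2b, Lama1, and pathway genes with an unadjusted p under 0.05) fall outside this rule and were picked with their values known. Values of 1 member are not reported here.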

Additional observations from a re-analysis of the deposited data

Results flagged for a closer look

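In 16 members, each group of 4 libraries was searched for 1 library far from the other 3 (Dixon's criterion at the 95% level), and 3 of 64 groups had one; chance alone gives about 1 in 20. Itga9 had 10.0 CPM in WT RNA replicate 1, below the 37.7 to 42.1 CPM of the other WT RNA libraries. Lama4 had 1.07 CPM in WT RNA replicate 2, above the 0.156 to 0.196 CPM of the other WT RNA libraries. Lamb3 had 21.5 CPM in KO footprint replicate 4, above the 0.952 to 4.36 CPM of the other KO footprint libraries.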

How the results depend on the processing

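The count of members past the threshold by edgeR was 0 in each comparison. DESeq2 gave 1 in RNA (Itga3) and 2 in footprints (Itga6 and Lama4). Leaving out 1 library at a time gave 0 to 1 in footprints (1 without KO replicate 4, Lama4) and 0 in RNA and in translational efficiency. With the replicate block the count was 0 in each comparison, and the block changed no other call. In RNA and in footprints the block paired same-numbered cultures. In translational efficiency it joined the RNA and footprint library of each culture and did not pair cultures. The adjusted p of Itga6 under the block was 0.436 in RNA and 0.392 in footprints. The other alternatives gave 0. Leaving out 1 library moved the median log2 fold change of the members between -0.44 and 0.17 in RNA, -0.24 and 0.18 in footprints and -0.11 and 0.19 in translational efficiency; the RNA and footprint medians were above 0 without WT replicate 1 and over replicates 3 and 4 alone (0.094 and 0.076). The median of translational efficiency lay below 0 without WT replicate 1 or 2 or KO replicate 3 or 4, over replicates 3 and 4 alone (-0.018) and with no identifier term (-0.023).

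Values of named genes turned sign in 6 instances, each for a difference that had not passed. Over replicates 3 and 4 alone these were -0.11 for Itga6 in translational efficiency and 0.92 for Itga3 in footprints. With 1 library left out, Itga6 in translational efficiency ran from -0.12 to 0.14 (-0.12 without WT replicate 2 and -0.011 without KO replicate 3), Itga3 in footprints from -0.75 to 0.099 (without KO replicate 1) and Itgb1 in RNA from -0.54 to 0.0035 (without WT replicate 2). The cause was not tested. Itga3 in RNA rests on 9 counts over the 4 KO libraries, which limits its fold change, and counting error alone does not cover the spread between cultures.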
